A study of Mus musculus with 18 samples.

Results

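Gene expression in Dusp5 knockout cells was compared between 3 h and 1 h of treatment with the phorbol ester TPA. The arrays were chosen by their sample labels alone, 3 of knockout cells at 3 h and 3 of knockout cells at 1 h, 6 of 18 Illumina mouse arrays in all. All cells were primary embryonic fibroblasts of male C57BL/6 mice, taken at embryonic day 13.5 from littermates. The groups used were knockout cells at 3 h and at 1 h of TPA at 100 ng/ml, knockout cells before TPA (0 h), and wild-type cells at 3 h, 1 h and 0 h under the same dose, with 3 arrays each. No solvent-only arrays were analysed here, so TPA and time in culture cannot be told apart in this step. Nothing in the labels ties the numbered arrays to separate embryos or cultures, so p-values cover the scatter among these samples alone, and that scatter may be technical. How the Dusp5 allele was made, and whether each genotype is 1 embryo or several, is not stated by the labels.

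TPA activates protein kinase C, which feeds into the RAS, RAF, MEK and ERK cascade. Active ERK enters the nucleus and phosphorylates ternary complex factors bound beside SRF, which switches on immediate early genes within minutes without new protein synthesis. These encode transcription factors such as FOS and the EGR proteins, phosphatases that shut ERK off again, and RNA-binding proteins that destabilise the early transcripts. DUSP5 is an inducible phosphatase that binds ERK in the nucleus and inactivates it there. A second wave of genes, among them proteases and secreted factors, follows once the early proteins have been made.

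Signals are given as log2 values after background correction and quantile normalization, and a change is the mean at 3 h minus the mean at 1 h, so a difference of 1 is a doubling. Detected probes numbered 16705 to 17813 on the 3 h arrays and 17023 to 17505 on the 1 h arrays, and the mean raw signal was 241 to 299 at 3 h and 236 to 259 at 1 h. The 3 h arrays correlated with the 1 h arrays at 0.984 to 0.987, against 0.991 to 0.996 between arrays of 1 group. Dusp5, the targeted gene, read 9.87, 9.93 and 10.03 in the 3 h arrays, against 10.04, 10.20 and 10.31 in the 1 h arrays, with 8.36, 8.28 and 8.31 before TPA. In wild-type cells it read 10.59, 10.71 and 10.49 at 3 h, 11.07, 11.16 and 11.23 at 1 h and 9.18, 9.21 and 9.22 before TPA. Every knockout array lay below every wild-type array of the same time, with differences of −0.65 ± 0.09 (log2, SE) at 3 h and −0.97 ± 0.09 at 1 h, and all were detected. The labels do not say whether the probe falls inside the deleted part, so this checks the labels only in part. Between 1 h and 3 h the knockout signal changed by −0.24 ± 0.09 (log2, SE, adjusted p = 0.0955), which missed the threshold of adjusted p below 0.05 in limma, although 4 alternatives called it, the series matrix values (adjusted p = 0.0230), no background correction (0.0229), a variance trend (0.0466) and leaving out knockout 1 h array 1 (0.0485). The wild-type change was −0.55 ± 0.09 (log2, SE, adjusted p = 2.82e-04), and the 2 changes were not shown to differ (difference 0.31, unadjusted 95% interval 0.04 to 0.58, adjusted p = 0.63).

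Of 10902 tested genes, 1519 (13.9%) were called between 3 h and 1 h in knockout cells, 816 higher (7.48%) and 703 lower (6.45%). At least 1.5-fold changes were called for 334 higher (3.06%) and 270 lower genes (2.48%), 604 in all (5.54%). Among genes detected at both times the largest rises were in Hivep3, a large zinc-finger protein (6.39-fold), and in Fam83g and Fam214a (4.29-fold and 4.25-fold), and the largest falls in the neutrophil chemokine Cxcl1 (6.24-fold), the Cdc42 effector Cdc42ep3 (6.21-fold), the zinc-finger factor Egr4 (6.12-fold) and the ankyrin repeat protein Ankrd1 (5.58-fold). Over all genes, 2953 (27.1%) had 3 h arrays entirely on one side of the 1 h arrays, and 1484 of the 1519 called genes did. Separation and calls come from the same arrays, so groups lying apart are not separate support for a call. In these bulk samples, fewer cells with a transcript and less transcript per cell cannot be told apart, and neither can less synthesis and faster decay. The split of calls moved with scaling: 53.7% were higher here and 74.8% of 964 with each array scaled to its median. Sizes depended on background correction: without it 89 of 169 named called genes had log2 changes over 1.5 times smaller, and 83 in the series matrix values.

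**Figure D1:**
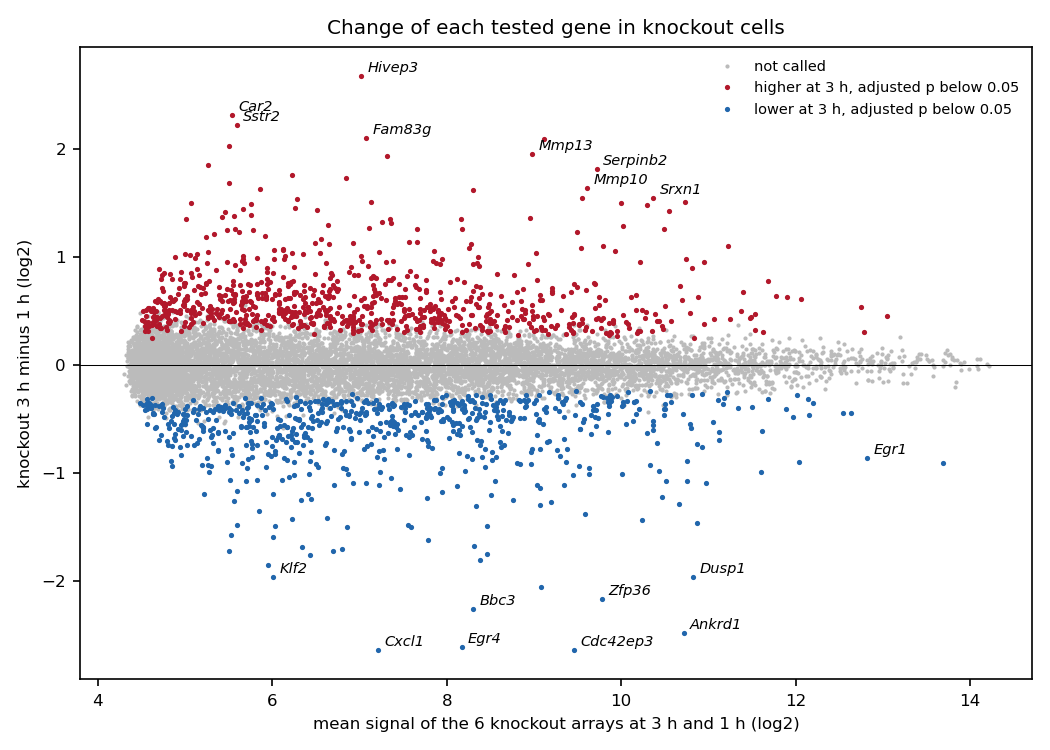
The change from 1 h to 3 h in knockout cells (log2, vertical axis) is plotted against the mean signal of the 6 arrays (log2, horizontal axis), with 1 point per tested gene, red for genes called higher, blue for genes called lower and grey for the rest. Hivep3 lies highest at 2.68, and Cxcl1, Cdc42ep3 and Egr4 lowest, at −2.64, −2.64 and −2.61.

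Immediate early transcription factors came down from their 1 h levels. Of 34 listed, 27 were tested, 20 fell and 1 rose, with a median change of −0.86, against 0.00051 over all tested genes and shares of 6.45% lower and 7.48% higher. Egr4 read 6.59, 7.02 and 6.97 in the 3 h arrays, against 9.53, 9.36 and 9.55 in the 1 h arrays. All its 3 h arrays lay far below the 1 h arrays, a change of −2.61 ± 0.11 (log2, SE, adjusted p = 2.11e-12). Egr3, of the same zinc-finger family, read 10.11, 10.20 and 10.13 in the 3 h arrays, against 11.66, 11.42 and 11.74 in the 1 h arrays, a fall by 1.46 ± 0.13 (adjusted p = 4.46e-08), although its 1 other kept probe was not called the same way. Egr2 read 10.31, 10.52 and 10.47 in the 3 h arrays, against 11.58, 11.54 and 11.45 in the 1 h arrays, and fell by 1.09 ± 0.09 (adjusted p = 3.69e-08). Egr1, a target of ERK through SRF, read 12.22, 12.45 and 12.49 in the 3 h arrays, against 13.31, 13.16 and 13.28 in the 1 h arrays. It fell by 0.86 ± 0.10 (adjusted p = 2.75e-06), with no overlap between the groups. Nab2, a corepressor of EGR proteins, fell by 0.65 ± 0.11 (adjusted p = 2.01e-04).

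Of the AP-1 subunits tested, which pair as FOS and JUN proteins, Fosb, Fos, Junb, Jun and Fosl2 fell and Jund was not called. Fosb read 6.66, 7.02 and 6.84 in the 3 h arrays, against 8.46, 8.27 and 8.31 in the 1 h arrays, and Fos read 6.83, 6.74 and 6.88 in the 3 h arrays, against 8.61, 8.24 and 8.05 in the 1 h arrays. The groups were apart for both, with changes of −1.50 ± 0.12 (log2, SE, adjusted p = 1.30e-08) and −1.48 ± 0.16 (log2, SE, adjusted p = 1.16e-06). Junb read 10.13, 9.70 and 9.74 in the 3 h arrays, against 10.99, 11.20 and 11.05 in the 1 h arrays, a fall by 1.22 ± 0.12 (adjusted p = 1.97e-07), and Jun fell by 0.85 ± 0.12 and Fosl2 by 0.96 ± 0.12 (adjusted p = 2.80e-05 and 4.57e-06). Jund, the subunit known for steady expression, had a difference of −0.30 (adjusted p = 0.147). The stress-induced repressor Atf3 read 4.93, 5.0 and 5.17 in the 3 h arrays, against 6.75, 7.06 and 6.83 in the 1 h arrays, a change of −1.85 ± 0.16 (log2, SE, adjusted p = 4.46e-08). The Krüppel-like factor Klf2 read 4.94, 5.13 and 5.02 in the 3 h arrays, against 7.08, 6.94 and 6.96 in the 1 h arrays, a change of −1.96 ± 0.11 (log2, SE, adjusted p = 9.99e-11), and Klf6 and Klf4 fell by 0.99 and 0.95. Csrnp1, Nr4a2, Hes1, Myc, Bhlhe40 and Ier3 fell by between 0.44 and 1.29. Ets2, an ETS-family factor, was the member that rose, by 0.43 ± 0.10 (adjusted p = 0.00445). Arc, a gene of synaptic plasticity that is also an immediate early gene, read 7.24, 6.94 and 7.25 in the 3 h arrays, against 7.19, 7.02 and 7.52 in the 1 h arrays: the groups overlapped and its change was −0.10 ± 0.12 (adjusted p = 0.697).

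The early factors ended at different heights relative to untreated knockout cells, which is read here from means at 0 h, 1 h and 3 h that share the arrays above. Egr3 stood at 6.87, 11.61 and 10.14, Egr4 at 4.66, 9.48 and 6.86, and Fosb at 4.97, 8.35 and 6.84, so all 3 were still above their starting level at 3 h (3.27, 2.21 and 1.88, adjusted p = 7.24e-14, 7.49e-12 and 1.83e-10). Atf3 stood at 4.58, 6.88 and 5.03, and Csrnp1 at 9.98, 11.31 and 10.02. For these 2 genes the 3 h level was not shown to differ from the start (adjusted p = 0.0574 and 0.796). The untreated means of Egr4 and Atf3 lay near or below the lowest signals of detected probes on the knockout 0 h arrays (4.65 to 4.66). Their starting levels are therefore not exact, and neither are the comparisons of Egr4 and Atf3 with the start. Klf2, at 7.16, 6.99 and 5.03, and Klf6, at 12.01, 12.10 and 11.11, were lower than at the start (−2.13 and −0.90, adjusted p = 8.63e-12 and 1.66e-06).

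**Figure D2:**
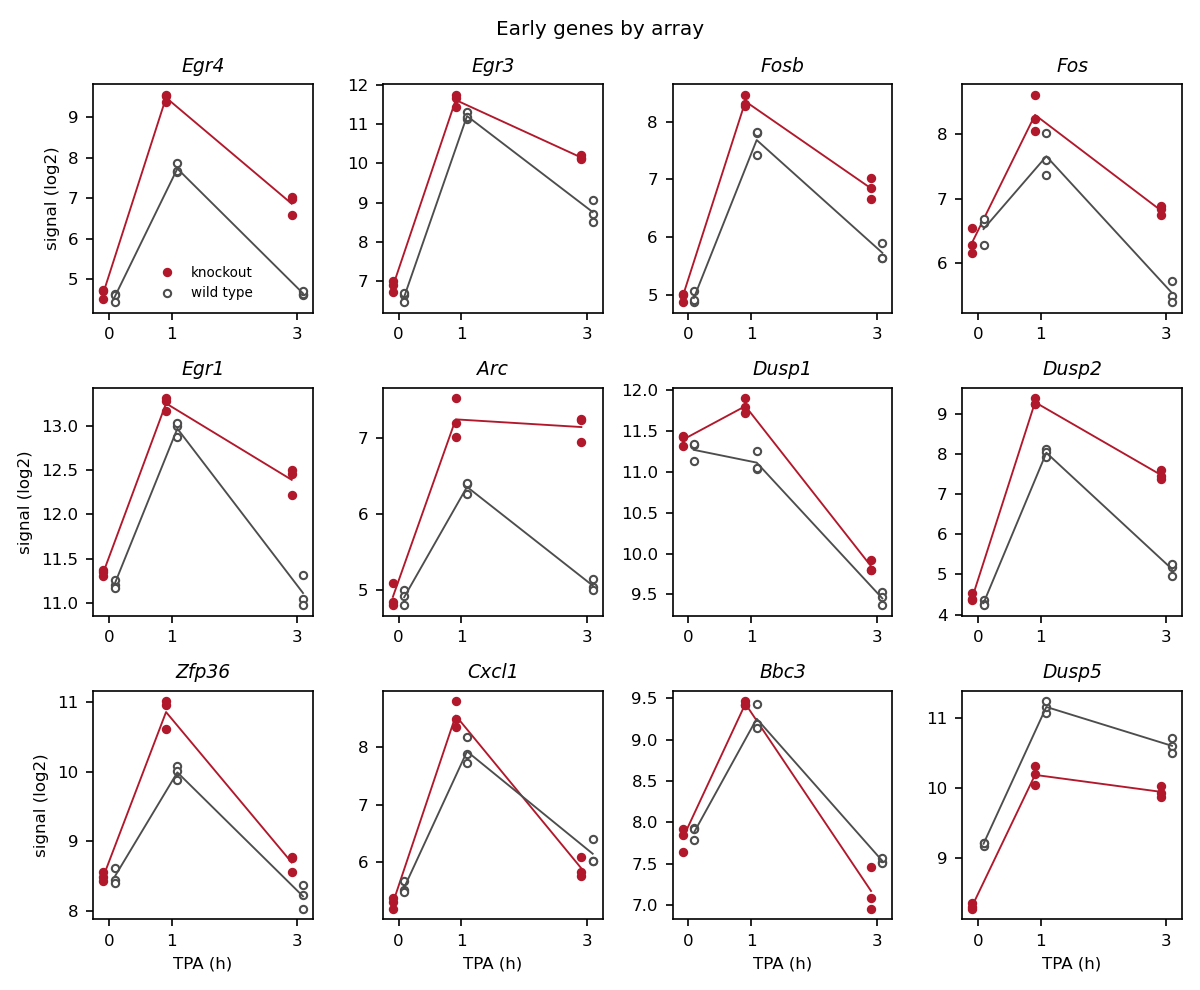
Signal of 12 early genes (log2, vertical axis, a range of its own in each panel) against hours of TPA (horizontal axis), with 1 point per array, filled red for knockout and open grey for wild type, and lines through the group means. In knockout cells the 3 h points lie below the 1 h points for all panels except Arc, where they overlap, and Dusp5 shows the smallest step among the genes whose groups lie apart.

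Promoters of 3 genes that fell are shown because each carries a site of the kind that immediate early promoters are known for. The windows hold 300 bases around the annotated start, from RefSeq on GRCm38.p6. Capitals mark a CArG box, the sequence SRF binds, in Egr2 (chr10:67537316-67537615, plus strand) and Zfp36 (chr7:28379179-28379478, minus strand), and a cyclic AMP response element in Dusp1 (chr17:26508423-26508722, minus strand).
Egr2: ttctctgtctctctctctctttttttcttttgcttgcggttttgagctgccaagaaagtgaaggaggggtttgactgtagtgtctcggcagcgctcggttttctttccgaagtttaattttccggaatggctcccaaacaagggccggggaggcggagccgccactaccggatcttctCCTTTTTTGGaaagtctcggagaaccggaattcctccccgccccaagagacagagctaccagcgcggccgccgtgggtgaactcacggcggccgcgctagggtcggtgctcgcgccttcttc
Zfp36: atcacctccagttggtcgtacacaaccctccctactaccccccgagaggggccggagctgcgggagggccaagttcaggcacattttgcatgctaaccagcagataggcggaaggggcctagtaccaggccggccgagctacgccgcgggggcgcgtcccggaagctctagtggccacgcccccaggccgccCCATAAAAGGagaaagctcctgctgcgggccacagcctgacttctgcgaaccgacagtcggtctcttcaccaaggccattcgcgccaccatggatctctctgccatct
Dusp1: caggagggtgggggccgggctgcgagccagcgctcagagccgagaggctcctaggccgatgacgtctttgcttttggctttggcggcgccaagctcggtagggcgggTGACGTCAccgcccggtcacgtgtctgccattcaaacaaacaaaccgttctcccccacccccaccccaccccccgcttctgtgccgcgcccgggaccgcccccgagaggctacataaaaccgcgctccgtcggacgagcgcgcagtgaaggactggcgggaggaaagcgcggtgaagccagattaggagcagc
The CArG box begins 72 bases before the start in Egr2, where 4 of 5 annotated windows hold one, and 58 bases before it in Zfp36. The response element, TGACGTCA, begins 143 bases before the start in Dusp1. Both strands were searched, and no CArG box, AP-1 site or response element overlapped another. A CArG box was found in 1.63% of 32851 windows of this length. By gene, it was in 1.86% of 8823 tested genes with a window, 3.36% of 566 lowered genes, 4.23% of 213 genes lowered at least 1.5-fold and 0.93% of 645 raised genes. TGACGTCA was found in 1.79% of windows, in 3.47% of the tested genes and in 3.53% of the lowered genes. Of 15 lowered immediate early factors with a window, 1 held a CArG box. A match describes these letters in this window only.

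Feedback regulators of ERK moved in both directions. Of 18 tested, 5 rose and 6 fell, against 7.48% and 6.45% of all genes. The rises numbered 3 without knockout 1 h array 1 or 2 or 3 h array 3, and the falls 3 with median scaling. Dusp1, a nuclear phosphatase of p38, JNK and ERK, read 9.81, 9.93 and 9.81 in the 3 h arrays, against 11.91, 11.79 and 11.73 in the 1 h arrays. It fell 3.89-fold, −1.96 ± 0.09 (log2, SE, adjusted p = 1.43e-11), to below its untreated mean of 11.39 (−1.55, adjusted p = 1.03e-10). Dusp2, a nuclear ERK phosphatase, read 7.61, 7.37 and 7.46 in the 3 h arrays, against 9.23, 9.39 and 9.23 in the 1 h arrays, a change of −1.80 ± 0.10 (log2, SE, adjusted p = 9.99e-11). Its 3 h arrays were still well above the untreated ones, which read 4.38, 4.35 and 4.53 and were not detected. Dusp8, which acts on JNK and p38, fell by 0.93 ± 0.18 (adjusted p = 9.31e-04). Spred2, which holds back RAF activation by RAS, moved the other way and read 6.45, 6.03 and 6.57 in the 3 h arrays, against 4.76, 4.75 and 4.48 in the 1 h arrays, a change of 1.69 ± 0.15 (log2, SE, adjusted p = 4.46e-08) with 2 of 3 arrays detected at 1 h, although its 1 other kept probe was not called the same way. Spred1, of the same family, read 9.30, 9.58 and 9.73 in the 3 h arrays, against 8.37, 8.53 and 8.61 in the 1 h arrays, a change of 1.03 ± 0.13 (log2, SE, adjusted p = 8.36e-06). Rasa2, a GTPase-activating protein of RAS, rose by 0.63 ± 0.13 (adjusted p = 0.00137).

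The ERK phosphatases Dusp6, in the cytoplasm, and Dusp4, in the nucleus, moved little. Dusp6 read 11.66, 11.69 and 11.73 in the 3 h arrays, against 12.20, 11.99 and 12.11 in the 1 h arrays, a change of −0.41 ± 0.13 (log2, SE, adjusted p = 0.0351), and Dusp4 read 10.32, 10.80 and 10.74 in the 3 h arrays, against 10.21, 10.20 and 10.22 in the 1 h arrays, a change of 0.41 ± 0.12 (log2, SE, adjusted p = 0.0253). Neither call was secure to single arrays: Dusp6 was not called without any one of the knockout arrays other than 1 h array 2 (−0.43 to −0.36), nor Dusp4 without any one other than 3 h array 1 (0.32 to 0.42). The calls of Dusp7 (0.38) and Trib1 (−0.53) were likewise lost without any one of 1 h arrays 1 and 2 and 3 h arrays 1 and 3. Errfi1, an inhibitor of the EGF receptor, read 13.23, 13.19 and 13.14 in the 3 h arrays, against 13.15, 13.30 and 13.36 in the 1 h arrays, and Spry4 read 7.10, 7.11 and 7.09 in the 3 h arrays, against 7.11, 7.48 and 7.15 in the 1 h arrays. Both stayed far above their untreated means of 10.85 and 5.37, with changes of −0.08 and −0.15 that were not called (adjusted p = 0.646 and 0.643). Dusp10, Dusp14, Spry3 and Sh2b3 were not called either.

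Among factors of mRNA decay, Zfp36 fell furthest. It encodes tristetraprolin, which binds AU-rich elements and recruits deadenylases to cytokine and early transcripts. Zfp36 read 8.77, 8.55 and 8.76 in the 3 h arrays, against 10.95, 11.01 and 10.61 in the 1 h arrays. All 3 h arrays lay below all 1 h arrays, with a change of −2.16 ± 0.12 (log2, SE, adjusted p = 5.07e-11), and the 3 h mean of 8.69 was not shown to differ from 8.48 before TPA (adjusted p = 0.259). Its relative Zfp36l1 read 10.35, 10.24 and 10.34 in the 3 h arrays, against 11.21, 11.11 and 11.26 in the 1 h arrays and fell by 0.88 ± 0.10 (adjusted p = 9.76e-07), with 1 of its 2 other probes called. Of the 27 decay factors tested, 4 fell and 1 rose (14.8% and 3.7%, against 6.45% and 7.48% of all genes). The falls numbered 2 under median scaling or without knockout 3 h array 1, and the rises 2 without knockout 1 h array 2. The other calls were falls of Tob1 (−0.44) and Zc3h12a (−0.40) and a rise of the decapping cofactor Dcp1b (0.48). Tob1 was not called without knockout 1 h array 1 or 3 h array 1 (−0.39 each), nor Zc3h12a without 1 h array 2 or 3 or 3 h array 1 (−0.40 to −0.30).

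Cytokine genes moved in both directions. Of 24 tested, 7 rose and 6 fell (29.2% and 25%, against 7.48% and 6.45% of all genes). Cxcl1 read 5.77, 6.09 and 5.83 in the 3 h arrays, against 8.78, 8.48 and 8.35 in the 1 h arrays. It fell 6.24-fold, −2.64 ± 0.14 (log2, SE, adjusted p = 3.55e-11), and its 3 h arrays lay nearer to the untreated ones, at 5.20, 5.31 and 5.39. Csf2, which encodes GM-CSF, read 5.67, 5.88 and 5.87 in the 3 h arrays, against 7.04, 7.14 and 6.82 in the 1 h arrays, and fell by 1.19 ± 0.10 (adjusted p = 4.46e-08). Cxcl2 was detected on all 1 h arrays and on none at 3 h, at least 1.58-fold lower (adjusted p = 1.38e-07). Il6 fell by 0.83 ± 0.12 (adjusted p = 4.06e-05) and was detected on 1 of 3 arrays at 3 h. Il11, a cytokine of the IL-6 family, read 10.11, 10.00 and 10.21 in the 3 h arrays, against 8.70, 8.90 and 9.03 in the 1 h arrays, and rose 2.35-fold, 1.23 ± 0.11 (log2, SE, adjusted p = 5.89e-08). Il1a rose by 1.01 ± 0.12 (adjusted p = 5.74e-06) and Il1rn, the receptor antagonist of IL-1, by 0.81 ± 0.11 (adjusted p = 2.75e-05). The alarmin Il33 was undetected on all 1 h arrays and detected on all 3 h arrays, at least 1.65-fold higher (adjusted p = 1.18e-06). An at-least fold compares the group means. On each array of the undetected group, a signal below that array's lowest signal of detected probes was first replaced by that lowest signal.

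Within the NF-kB list, 6 of 18 tested genes rose and 5 fell (33.3% and 27.8%, against 7.48% and 6.45% of all genes). Inhibitors of the pathway moved in both directions. Tnfaip3, the ubiquitin-editing enzyme A20, read 5.45, 5.84 and 5.20 in the 3 h arrays, against 7.27, 7.16 and 7.11 in the 1 h arrays, a change of −1.69 ± 0.16 (log2, SE, adjusted p = 2.00e-07). Nfkbiz, a nuclear IkB protein, fell by 1.11 ± 0.12 and Nfkbia, which holds NF-kB in the cytoplasm, by 0.70 ± 0.12 (adjusted p = 1.30e-06 and 4.34e-04). Nfkbia was still 1.34 above its untreated level at 3 h. Tnfaip2 read 10.43, 10.43 and 10.51 in the 3 h arrays, against 9.39, 9.29 and 9.52 in the 1 h arrays, a rise of 1.05 ± 0.10 (adjusted p = 1.11e-07), with both other probes called the same way. The adaptor Traf1 and the inhibitor Nfkbie rose by 0.98 ± 0.13 and 0.69 ± 0.12 (adjusted p = 1.43e-05 and 2.49e-04).

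Targets of YAP and TEAD, which respond to cell shape and tension, also came down. Of 17 tested, 10 fell and 0 rose (58.8% and 0%, against 6.45% and 7.48% of all genes), with a median of −0.89. In limma no higher gene had an unadjusted p below 0.05. Cdc42ep3 read 7.92, 8.33 and 8.19 in the 3 h arrays, against 10.82, 10.76 and 10.77 in the 1 h arrays, a change of −2.64 ± 0.11 (log2, SE, adjusted p = 7.95e-13). Ankrd1 read 9.38, 9.59 and 9.46 in the 3 h arrays, against 11.99, 12.05 and 11.83 in the 1 h arrays, a change of −2.48 ± 0.10 (log2, SE, adjusted p = 7.95e-13). Both were high before TPA, at means of 11.25 and 12.14, so these falls do not follow a rise at 1 h. Dlc1 read 5.97, 5.83 and 5.69 in the 3 h arrays, against 7.59, 7.79 and 7.28 in the 1 h arrays, and Amotl2, a binding partner of YAP, read 5.53, 5.0 and 5.13 in the 3 h arrays, against 6.75, 6.85 and 6.81 in the 1 h arrays. The groups were apart for both genes, with falls of 3.31-fold and 3.01-fold (adjusted p = 1.78e-08 and 1.67e-08). The kinase Nuak2 read 7.48, 7.47 and 7.46 in the 3 h arrays, against 9.13, 9.04 and 9.28 in the 1 h arrays, a fall of 3.2-fold (adjusted p = 3.25e-10).

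SRF drives actin cytoskeleton genes, and its own transcript was among those that fell. Srf read 8.88, 8.93 and 8.93 in the 3 h arrays, against 9.93, 9.72 and 9.79 in the 1 h arrays, and fell by 0.90 ± 0.11 (adjusted p = 3.72e-06), although its 1 other kept probe was not called the same way. Of 21 tested genes of this list 5 fell and 0 rose (23.8% and 0%, against 6.45% and 7.48% of all genes). At an unadjusted p below 0.05 in limma, 1 was higher. With median scaling 2 fell, and 3 fell without any one of knockout 1 h arrays 1 or 2 or 3 h arrays 1 or 3. Lima1, an actin crosslinker, fell by 0.78 ± 0.11 (adjusted p = 2.43e-05). Lmod1, an actin nucleator of smooth muscle, read 5.79, 5.90 and 6.16 in the 3 h arrays, against 7.81, 7.52 and 7.61 in the 1 h arrays, a fall of 3.25-fold (adjusted p = 2.94e-09).

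Of 20 p53 targets tested, 8 fell and 1 rose, against 6.45% and 7.48% of all genes, and 5 fell with median scaling. Bbc3, the gene of the cell death protein PUMA, read 6.96, 7.09 and 7.47 in the 3 h arrays, against 9.42, 9.42 and 9.46 in the 1 h arrays, a change of −2.26 ± 0.12 (log2, SE, adjusted p = 3.17e-11). Its groups lay far apart, but neither of its 2 other kept probes was called the same way. Mdm2, the ubiquitin ligase of p53, read 11.50, 11.69 and 11.58 in the 3 h arrays, against 12.47, 12.46 and 12.52 in the 1 h arrays, and fell by 0.89 ± 0.09 (adjusted p = 4.65e-07) with both other probes called. Plk3 and Trp53inp1 fell by 1.02 and 0.98 (adjusted p = 3.24e-06 and 1.43e-05). Gadd45a, a stress-response gene, rose by 0.58 ± 0.10 (adjusted p = 4.33e-04), although its 1 other probe was not called the same way.

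Secreted growth factors and hormones moved in both directions: of 25 tested, 9 rose and 7 fell (36% and 28%, against 7.48% and 6.45% of all genes). Adrenomedullin (Adm) read 4.47, 4.78 and 4.98 in the 3 h arrays, against 6.10, 6.52 and 6.33 in the 1 h arrays, and fell 2.97-fold, with 2 of 3 arrays detected at 3 h. Bdnf read 7.84, 7.49 and 7.84 in the 3 h arrays, against 9.27, 9.07 and 9.28 in the 1 h arrays, a fall of 2.8-fold, with 2 of its 4 other probes called. Edn1, the precursor of endothelin-1, fell 2.79-fold and the ERBB ligand Nrg1 2.82-fold (adjusted p = 1.97e-07, 1.60e-08, 3.40e-09 and 1.14e-07 for these 4). Among the rises, Btc, an EGF receptor ligand, was undetected on the 1 h arrays (4.24, 4.30 and 4.45) and detected on all 3 h arrays (6.27, 6.01 and 6.28), at least 2.87-fold higher (adjusted p = 1.27e-08). Angptl4, an inhibitor of lipoprotein lipase, read 11.26, 11.21 and 11.31 in the 3 h arrays, against 9.77, 9.82 and 9.93 in the 1 h arrays, a rise of 2.68-fold (adjusted p = 4.06e-10), and its other probe was not called the same way. Stc1, a glycoprotein hormone, read 10.61, 10.71 and 10.68 in the 3 h arrays, against 9.34, 9.31 and 9.47 in the 1 h arrays, a rise of 2.44-fold (adjusted p = 4.60e-09). Pdgfb rose 2.4-fold on its main probe (adjusted p = 4.15e-07) and its other probe was not called the same way. Angptl4, Stc1 and Pdgfb had already risen at 1 h, by 1.39, 1.85 and 2.16 over untreated cells, a comparison that shares the 1 h arrays.

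Members of the list of plasminogen activators, metalloproteinases and inhibitors rose more often than they fell. Of 18 tested, 8 rose and 2 fell, against 7.48% and 6.45% of all genes, and 8 rose under each alternative too. Mmp13, collagenase 3, read 10.06, 9.78 and 10.03 in the 3 h arrays, against 7.92, 7.88 and 8.22 in the 1 h arrays, a rise of 3.87-fold, 1.95 ± 0.18 (log2, SE, adjusted p = 1.06e-07). Its 3 h arrays all lay above the 1 h arrays, and 1 of its 2 other probes was called. Serpinb2, the plasminogen activator inhibitor PAI-2, read 10.92, 10.41 and 10.56 in the 3 h arrays, against 8.80, 8.85 and 8.80 in the 1 h arrays, a change of 1.81 ± 0.12 (log2, SE, adjusted p = 9.20e-10). Mmp10, stromelysin 2, read 10.57, 10.32 and 10.40 in the 3 h arrays, against 8.78, 8.75 and 8.86 in the 1 h arrays, a change of 1.63 ± 0.10 (log2, SE, adjusted p = 1.55e-10). Mmp13, Serpinb2 and Mmp10 were among the genes already raised at least 1.5-fold by 1 h in wild-type cells. Mmp12, macrophage elastase, rose by 0.88 ± 0.13 (adjusted p = 6.85e-05). Adamts1, a matrix protease, fell by 0.59 ± 0.12 (adjusted p = 0.00209), and the fall of Mmp11 (−0.47) was lost without any one of knockout 1 h arrays 1 and 2 and 3 h arrays 1 and 2 (−0.49 to −0.27). Slpi, an inhibitor of serine proteases outside this list, read 7.19, 7.06 and 7.07 in the 3 h arrays, against 5.44, 5.12 and 5.49 in the 1 h arrays, a rise of 3.38-fold, 1.76 ± 0.13 (log2, SE, adjusted p = 2.82e-09).

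The promoters of 3 of these genes are shown because each holds an AP-1 site near the start, in capitals. The site, TGANTCA, is its own reverse complement apart from the middle base. The windows are chr9:7272264-7272563 for Mmp13, chr9:7502092-7502391 for Mmp10 and chr1:107511173-107511472 for Serpinb2, all on the plus strand of GRCm38.p6, from RefSeq.
Mmp13: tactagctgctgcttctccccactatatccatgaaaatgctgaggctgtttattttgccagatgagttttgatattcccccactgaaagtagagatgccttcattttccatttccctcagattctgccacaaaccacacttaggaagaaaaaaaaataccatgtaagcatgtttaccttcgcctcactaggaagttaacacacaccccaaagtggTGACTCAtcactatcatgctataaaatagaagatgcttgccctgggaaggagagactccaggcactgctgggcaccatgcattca
Mmp10: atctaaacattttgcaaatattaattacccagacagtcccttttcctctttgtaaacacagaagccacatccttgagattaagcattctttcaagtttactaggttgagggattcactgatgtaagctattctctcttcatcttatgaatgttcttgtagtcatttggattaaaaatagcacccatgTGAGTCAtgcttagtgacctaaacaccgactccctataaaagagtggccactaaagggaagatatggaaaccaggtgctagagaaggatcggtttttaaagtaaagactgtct
Serpinb2: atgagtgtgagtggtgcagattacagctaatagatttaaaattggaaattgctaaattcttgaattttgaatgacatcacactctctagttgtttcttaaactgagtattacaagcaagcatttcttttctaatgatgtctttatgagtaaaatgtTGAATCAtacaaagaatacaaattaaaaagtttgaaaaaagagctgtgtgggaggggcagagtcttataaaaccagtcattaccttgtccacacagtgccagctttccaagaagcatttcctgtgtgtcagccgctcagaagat
The site begins 35 bases before the start in Mmp13, 63 in Mmp10 and 94 in Serpinb2. Of the 8 raised members of the protease and inhibitor list, 5 had a window and all 5 held the site. So did 1 of the 8 members with a window that were tested and not raised. It was found in 7.81% of all 32851 windows. By gene it was found in 6.71% of tested genes, 8.22% of raised genes, 11.5% of 252 genes raised at least 1.5-fold and 7.04% of genes lowered at least 1.5-fold.

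Several of the largest rises lay outside the gene lists. Hivep3 read 8.27, 8.26 and 8.55 in the 3 h arrays, against 5.64, 5.44 and 5.96 in the 1 h arrays, a change of 2.68 ± 0.15 (log2, SE, adjusted p = 1.44e-10). Carbonic anhydrase 2 (Car2) read 6.66, 6.71 and 6.73 in the 3 h arrays, against 4.43, 4.35 and 4.38 in the 1 h arrays. It was undetected on all 1 h arrays and detected on all 3 h arrays, at least 4.09-fold higher (adjusted p = 1.49e-13). Sstr2, a somatostatin receptor, read 6.73, 6.6 and 6.79 in the 3 h arrays, against 4.51, 4.37 and 4.58 in the 1 h arrays, and Itga2, the collagen-binding integrin α2, read 6.38, 6.55 and 6.62 in the 3 h arrays, against 4.49, 4.53 and 4.46 in the 1 h arrays. Both were undetected at 1 h and rose at least 4.12-fold and at least 3.6-fold (adjusted p = 3.17e-11 and 1.65e-10). Fam83g read 8.19, 7.99 and 8.21 in the 3 h arrays, against 6.10, 5.85 and 6.15 in the 1 h arrays, a change of 2.10 ± 0.11 (log2, SE, adjusted p = 5.61e-11). Fam214a read 10.14, 10.08 and 10.26 in the 3 h arrays, against 8.12, 7.90 and 8.21 in the 1 h arrays, a change of 2.09 ± 0.11 (log2, SE, adjusted p = 3.17e-11), although its other probe was not called the same way. Klhl3, an adaptor of a cullin-3 ubiquitin ligase, rose 3.31-fold (adjusted p = 1.54e-09). The 1 h means of Hivep3 and Fam214a stood 0.21 and −0.01 from the untreated ones (adjusted p = 0.597 and 0.991), a comparison that shares the 1 h arrays. Car2, Sstr2 and Itga2 were undetected at 0 h as well. Without background correction the changes were 1.49 for Hivep3, 0.78 for Car2, 0.75 for Sstr2, 0.66 for Itga2 and 1.19 for Fam83g, and with the mean of its probes 0.88 for Fam214a, all still called.

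**Figure D3:**
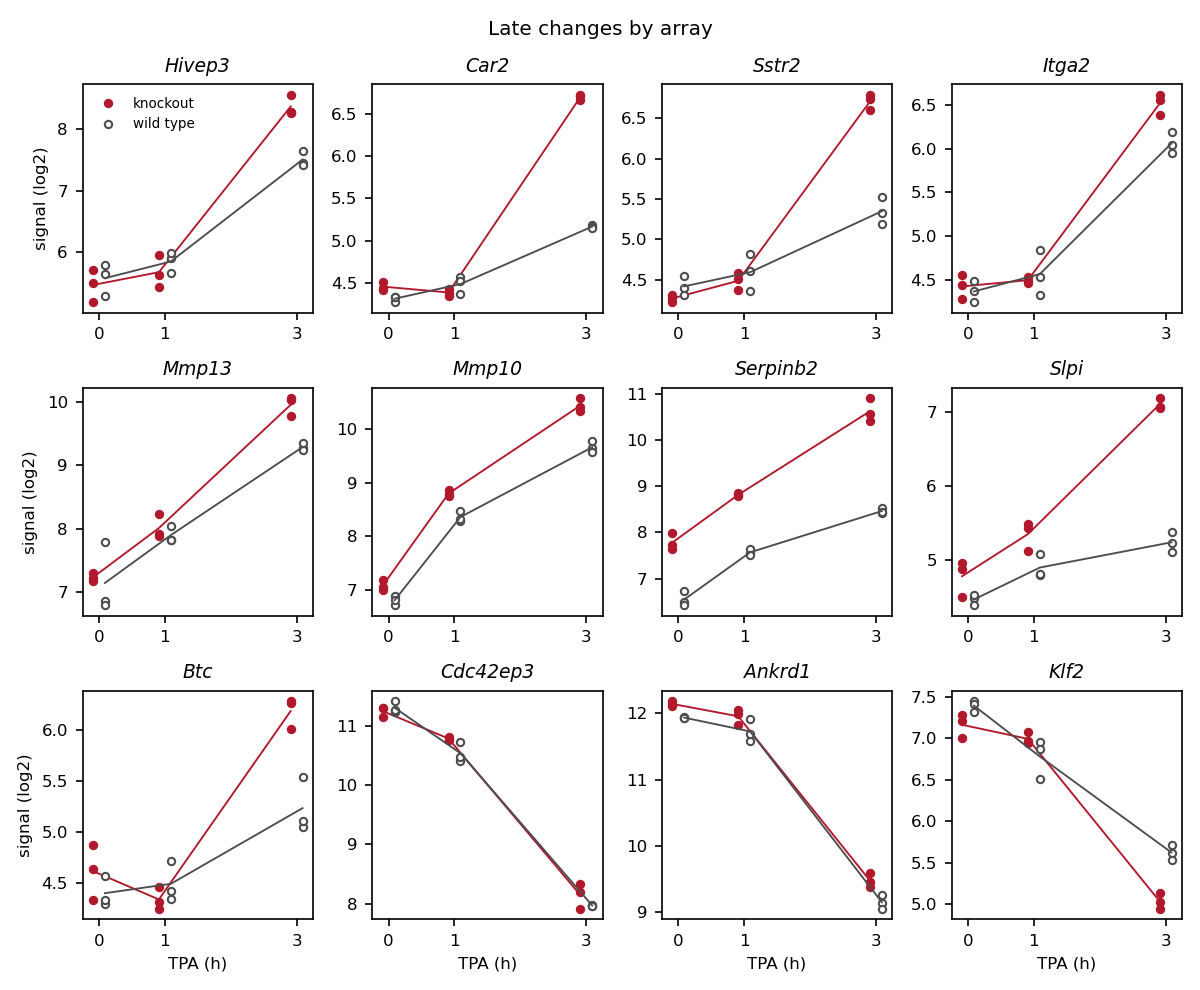
Signal of 12 genes with late changes (log2, vertical axis, a range of its own in each panel) against hours of TPA (horizontal axis), with 1 point per array, filled red for knockout and open grey for wild type, and lines through the group means. The 9 genes that rose have their knockout 3 h points above all knockout 1 h points, and Cdc42ep3, Ankrd1 and Klf2 have theirs below.

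Of 18 antioxidant targets of NRF2, 5 rose and 0 fell (27.8% and 0%, against 7.48% and 6.45% of all genes; limma; 9 higher and 0 lower at an unadjusted p below 0.05). Srxn1, a sulfiredoxin, read 11.30, 10.92 and 11.19 in the 3 h arrays, against 9.44, 9.65 and 9.70 in the 1 h arrays, a rise of 2.91-fold (adjusted p = 8.18e-10) with both other probes called. The cystine importer Slc7a11, the growth inhibitor Osgin1 and heme oxygenase Hmox1 rose by 0.98 ± 0.13, 0.96 ± 0.13 and 0.95 ± 0.10 (adjusted p = 1.51e-05, 2.59e-05 and 7.91e-07). Ggct, of glutathione breakdown and outside this list, rose 2.91-fold (adjusted p = 2.20e-09) with all 3 other probes called. Of 16 glycolysis and hypoxia genes 5 rose and 0 fell (0 lower at an unadjusted p below 0.05), led by Ndrg1 (1.14 ± 0.13) and the phosphofructokinase regulator Pfkfb4 (0.83 ± 0.10). None of 18 sterol and lipid synthesis genes was called by limma (0 higher and 2 lower at an unadjusted p below 0.05). Of 20 unfolded protein and ATF4 response genes 2 fell, the eIF2α phosphatase subunit Ppp1r15a by 1.00 ± 0.10 (adjusted p = 1.97e-07) and Herpud1 by 0.54. Of 27 cell cycle genes 1 rose and 2 fell (3.7% and 7.41%, against 7.48% and 6.45% of all genes), with 0 falls under median scaling, and of 20 ribosome biogenesis genes 3 rose (15%). With single knockout arrays left out these 3 counts went down to 0, 1 and 1, the first without any one of the 6, the second without 1 h array 2 or 3 or 3 h array 1 or 3, and the third without any 1 h array or 3 h array 1.

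The shares over all genes, 7.48% higher and 6.45% lower, are the background of the next lists. In the TGF-beta, BMP and Id list 3 of 16 rose and 5 fell. The BMP antagonist Grem1 read 11.27, 11.32 and 11.18 in the 3 h arrays, against 10.32, 10.27 and 10.49 in the 1 h arrays, and Smad3, which carries TGF-beta signals, read 11.24, 11.22 and 11.23 in the 3 h arrays, against 10.19, 10.14 and 10.41 in the 1 h arrays. They rose by 0.90 ± 0.09 and 0.98 ± 0.10 (adjusted p = 6.82e-07 and 5.66e-07). The inhibitory Smad6 fell by 0.99 ± 0.11, and the BMP targets Id4 and Id3 by 0.78 and 0.69 (adjusted p = 1.56e-06, 1.01e-04 and 0.00132). Of 19 mesenchymal and skeletal transcription factors 6 rose and 4 fell. Foxo1 rose by 1.23 ± 0.12, the cartilage regulator Sox9 by 0.78 ± 0.11 and Tbx3 by 0.69 ± 0.11, and Sox11 fell by 0.68 ± 0.09 (adjusted p = 3.22e-07, 2.77e-05, 1.73e-04 and 9.73e-06). Of 14 clock genes Arntl, the positive arm of the clock, rose by 1.08 ± 0.11, and 4 fell, led by the repressors Per1 (−1.41 ± 0.11) and Nr1d1 (−0.65 ± 0.16; adjusted p = 3.46e-07, 9.49e-09 and 0.00635). Among 14 hyaluronan, prostaglandin and surface genes 5 rose and 2 fell, with the prostaglandin E synthase Ptges up by 1.03 ± 0.13 and the hyaluronidase Cemip down by −0.88 ± 0.11 (adjusted p = 7.11e-06 and 9.81e-06), and the rises numbered 2 without knockout 1 h array 1 and 3 without knockout 1 h array 3 or 3 h array 1 or 2, and the falls 1 without 1 h array 3 or with median scaling. Of 10 interferon response genes 2 fell, Ifit2 by 0.91 and Irf1 by 0.87 (adjusted p = 1.82e-04 and 5.16e-06). Of 21 fibroblast matrix genes 1 rose and 2 fell (4.76% and 9.52%, against 7.48% and 6.45% of all genes), with a change of −0.73 ± 0.10 for thrombospondin 1 (Thbs1, adjusted p = 1.32e-05). The rise was lost without any one of the knockout arrays other than 3 h array 2, and 1 fall was lost without 1 h array 1 or 2 or 3 h array 2 or 3. With median scaling the falls numbered 3 in the NF-kB and the TGF-beta lists, 2 in the clock and the mesenchymal factor lists and 1 among unfolded protein response genes.

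**Figure D4:**
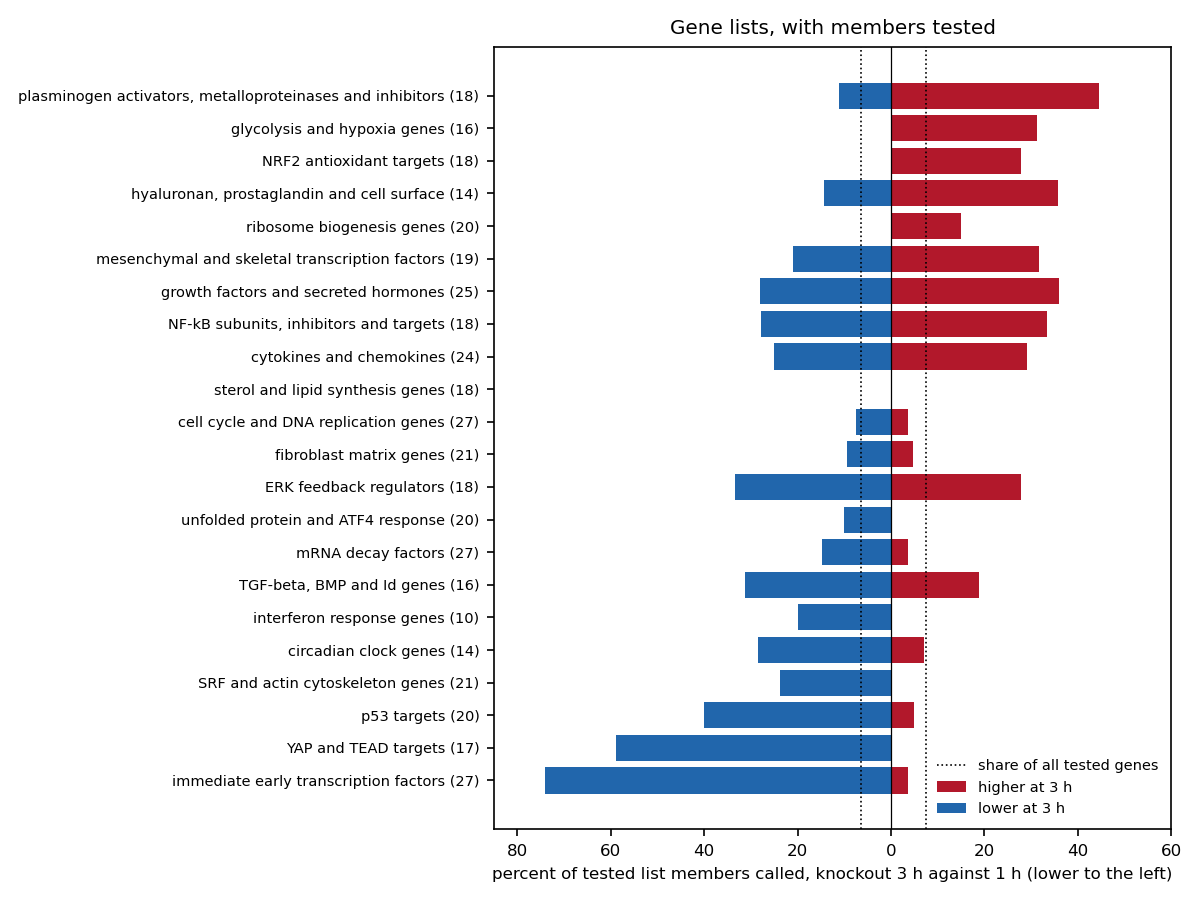
Share of the tested members of each gene list shown called higher (red, right) or lower (blue, left) at 3 h than at 1 h in knockout cells, in percent, with the number tested in brackets and dotted lines at the shares over all tested genes, 7.48% and 6.45%. The protease and inhibitor list extends farthest to the right, and immediate early factors and YAP and TEAD targets farthest to the left.

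The fibroblast label was set against its markers: all 10 fibroblast markers passed the detection filter and 9 were detected on all 18 arrays. Their summed signal was 17543 to 19080 at 3 h, against 16698 to 18485 at 1 h, and 1 of the 10 was called, Pdgfra, which rose by 0.98 ± 0.12 (adjusted p = 7.51e-06). Of other cell types' markers, 6 of 11 macrophage and blood, 4 of 8 endothelial, 7 of 11 epithelial, 3 of 8 skeletal muscle, 4 of 8 neural and 6 of 8 cartilage and bone genes passed the filter. Summed signal was 868 to 1022 at 3 h, against 821 to 917 at 1 h for macrophage and blood, 143 to 156 at 3 h, against 136 to 141 at 1 h for endothelial and 752 to 808 at 3 h, against 770 to 841 at 1 h for epithelial markers. It was 2642 to 3180 at 3 h, against 2968 to 3129 at 1 h for muscle, 151 to 173 at 3 h, against 169 to 185 at 1 h for neural and 410 to 457 at 3 h, against 413 to 473 at 1 h for cartilage and bone markers. The endothelial ranges did not overlap between the times, and the other 6 lists' ranges, fibroblast included, did. The endothelial sum rests on 4 genes, of which 1 was detected on all 18 arrays. Of all tested genes, 27.1% also had groups that did not overlap. Ptprc and Cd68 of blood cells, Pecam1 and Cdh5 of endothelium, Epcam and Krt5 of epithelium and Myod1 of muscle did not pass the filter. Of the genes that passed, 5 of 6 macrophage and blood, 4 of 7 epithelial and 2 of 3 muscle genes were detected on all 18 arrays. Absence of these cell types is therefore not shown. Called among these markers were Cldn4 (0.91), Krt18 (0.48), Sp7 (0.60), Esam (0.50) and Mbp (−0.93). The calls of Krt18 and Esam were lost without single arrays (Krt18 without knockout 1 h array 1 or 3 h array 1, at 0.45 and 0.42, and Esam without 1 h array 2 or 3 or 3 h array 2 or 3, at 0.41 to 0.48). The part of any other cell type in the results was not tested.

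To describe the step without choosing genes on the knockout change, genes were classed by their changes in wild-type cells. The wild-type means share no array with the knockout comparison. The variance, the detection filter and the probe choice came from all 18 arrays, so class calls and knockout calls are not fully independent. Of 123 genes raised at least 1.5-fold by 1 h in wild-type cells, 42 (34.1%) fell between 1 h and 3 h in knockout cells and 43 (35%) rose, with a median change of −0.07. The early wave was mixed: Cxcl1, Egr4, Bbc3 and Zfp36 led the falls, and Mmp13, Serpinb2, Mmp10 and Ggct the rises. Of 61 genes lowered by 1 h in wild-type cells, 21 (34.4%) fell between 1 h and 3 h in knockout cells and 18 (29.5%) rose. Of 180 genes raised in wild-type cells only at 3 h, 145 (80.6%) rose in the knockout step and 0 fell, with a median of 0.67. Of 237 lowered only at 3 h, 200 (84.4%) fell and 0 rose, with a median of −0.63. The background shares are 7.48% higher and 6.45% lower.

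Some genes were low at 1 h alone. The zinc-finger genes Zfp60, Zfp763, Zfp94 and Zfp41, the mediator subunit Med18 and the mitochondrial transcription terminator family gene Mterf1b led the rises among genes lowered by 1 h in wild-type cells. Zfp60 read 6.20, 6.12 and 5.99 in the 3 h arrays, against 4.98, 4.77 and 4.46 in the 1 h arrays, with 6.17, 5.97 and 5.76 before TPA. Zfp94 read 5.86, 6.09 and 5.86 in the 3 h arrays, against 4.67, 4.56 and 4.95 in the 1 h arrays, with 6.08, 5.97 and 6.06 before TPA. For both genes the 1 h arrays lay below all arrays at 0 h and 3 h, and 2 of 3 were detected. The changes were 1.37 ± 0.14 (log2, SE, adjusted p = 4.47e-07) for Zfp60 and 1.21 ± 0.11 (log2, SE, adjusted p = 1.11e-07) for Zfp94. Zfp763 rose by 1.25, Mterf1b by 1.04, Med18 by 0.94 and Zfp41 by 0.70 (adjusted p = 2.25e-07, 3.93e-07, 2.63e-06 and 5.16e-04). In wild-type cells the same step was 0.82 for Zfp60, 0.91 for Zfp763, 0.93 for Zfp94, 0.94 for Mterf1b, 0.82 for Med18 and 0.79 for Zfp41. That wild-type step shares the 1 h arrays by which the class was chosen, so it is not a separate check. Cross-hybridisation between related zinc-finger transcripts was not tested.

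**Figure D5:**
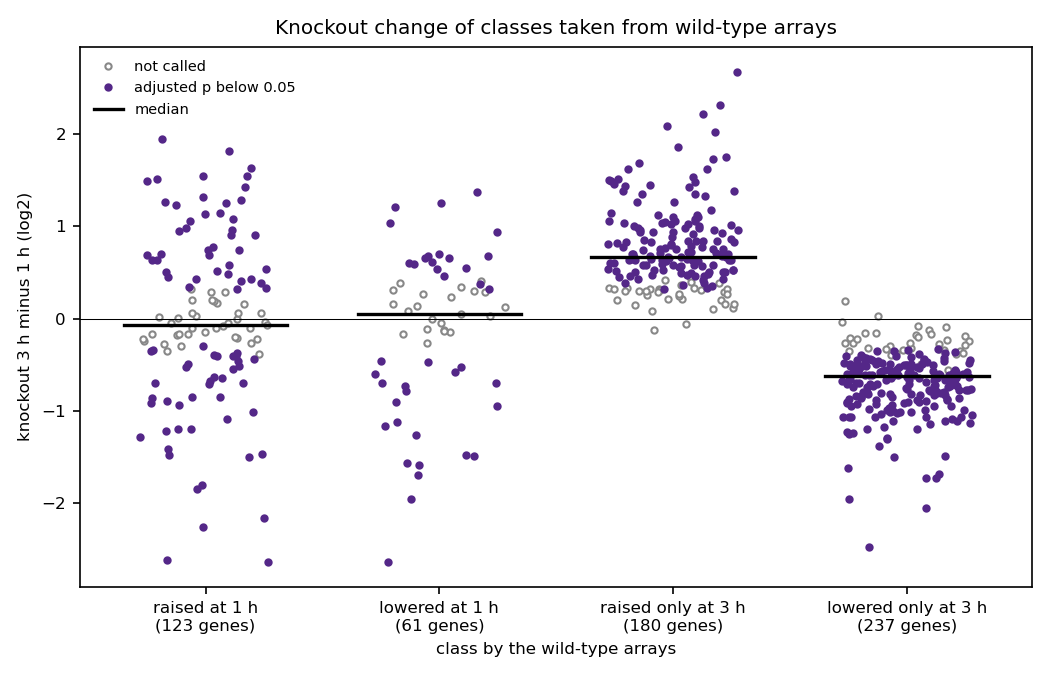
The change from 1 h to 3 h in knockout cells (log2, vertical axis) for genes in 4 classes taken from the wild-type arrays (horizontal axis), with 1 point per gene, filled where called, and a bar at the class median. Genes raised or lowered at 1 h spread to both sides, and those raised or lowered only at 3 h lie almost all on one side, with medians of 0.67 and −0.63.

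The same step in wild-type cells gave 1115 called genes (10.2%), 592 higher (5.43%) and 523 lower (4.80%), and 405 (3.71%) with at least 1.5-fold changes, 205 higher (1.88%) and 200 lower (1.83%). The genotypes shared 419 raised genes, which are 51.3% of those raised in knockout and 70.8% of those raised in wild-type cells, and 370 lowered genes, 52.6% and 70.7%. No gene was called in opposite directions. The difference between the 2 steps was tested directly and called for 20 genes (0.183%), 15 with a higher (0.138%) and 5 with a lower change (0.0459%) in knockout cells, each by at least 1.5-fold. Without knockout 1 h array 1 or knockout 3 h array 3 it was called for 9 genes, and 5 of the 20 kept their call under every alternative tried: Car2, Sstr2, Slpi, Fam83g and Egr1. Car2, undetected at 1 h in both genotypes, read 6.66, 6.71 and 6.73 in knockout cells at 3 h, against 5.18, 5.17 and 5.15 in wild-type cells. Its fitted difference of steps was 1.63 (adjusted p = 7.45e-08), a size that is not exact since the 1 h values were not above background. Slpi read 7.19, 7.06 and 7.07 in knockout cells at 3 h, against 5.23, 5.11 and 5.39 in wild-type cells, where the 1 h arrays read 4.80, 5.09 and 4.81. Its difference was 1.41 ± 0.18 (log2, SE, adjusted p = 4.79e-04), and the wild-type step itself was not called (0.34, adjusted p = 0.0956). Fam83g differed by 1.11 (adjusted p = 0.00174). The fitted difference of Sstr2 was 1.47 (adjusted p = 9.51e-05), again with knockout 1 h values not above background.

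For Egr1, Arc, Dusp2 and Egr3 the wild-type fall was the larger one. Egr1 read 11.05, 11.32 and 10.97 in the 3 h arrays, against 12.997, 12.87 and 13.03 in the 1 h arrays in wild-type cells, where it fell by 1.86 ± 0.10, so that the knockout change was higher by 0.99 ± 0.14 (adjusted p = 0.00174). Arc in wild-type cells read 5.04, 5.14 and 4.99 in the 3 h arrays, against 6.40, 6.26 and 6.41 in the 1 h arrays, a fall by 1.30 ± 0.12, against no call in knockout cells, and the difference was 1.20 ± 0.17 (log2, SE, adjusted p = 0.00174). That difference was not called in the series matrix values or without background correction (0.42 and 0.38). Dusp2 fell by 2.89 in wild-type cells, and its difference of 1.09 (adjusted p = 6.97e-04) dropped to 0.08 and 0.04 under the same alternatives. The difference for Egr3 (0.98, adjusted p = 0.0264) was lost with the mean of all its probes (0.35), with only the compared arrays (adjusted p = 0.0669) and without any of 8 single arrays, all but wild-type 1 h arrays 2 and 3, wild-type 3 h array 2 and knockout 1 h array 3 (adjusted p = 0.0525 to 0.0855). Fos, Fosb, Egr4 and Junb gave positive differences (0.64, 0.45, 0.46 and 0.42) that were not called (adjusted p = 0.476, 0.531, 0.453 and 0.576). Zfp36 and Cxcl1 gave negative ones (−0.38 and −0.87, adjusted p = 0.669 and 0.0909), so a difference was not shown for them. Scaling each array to its median shifted the difference over all genes by 0.195, and Egr1, Car2, Slpi, Sstr2 and Fam83g were called with it too.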

How the data were processed

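Transcript levels were measured on 18 Illumina mouse arrays, 3 for each of 6 groups taken from the sample labels. Per the file headers, the deposited tables give each probe's signal intensity and a detection p-value, not yet normalized. The series matrix holds the authors' log2 values of the same arrays, used as an alternative. Here limma 3.58.1 in R 4.3.3 corrected background from the detection p-values, quantile-normalized and took log2 (neqc, offset 16). Probes detected at p below 0.05 on at least 3 arrays were kept, with the brightest probe for each gene. The 10902 genes were fitted with 6 group means and eBayes, and p-values were adjusted over all of them by Benjamini-Hochberg, with calls at adjusted p below 0.05. Of 45281 probes, 34885 had 1 symbol in the platform annotation, 18 several and 10378 none, and 34807 were matched by Entrez ID to RefSeq. The number of arrays limits the precision. The comparison and the gene lists were chosen with earlier results of these data known. Named genes were the early factors and ERK regulators, the top 15 rises and top 15 falls by size (called, groups apart), up to 4 called members of each other list in each direction, up to 6 called genes per wild-type class and direction, and genes called for the genotype difference. Clone and predicted names were counted but not named. Alternatives changed background, scaling, filter, probe choice, variance model, arrays used and call rule. No pairing of same-numbered arrays across times was visible: deviations of same-numbered knockout arrays correlated at −0.008, 0.007 and 0.049. Whether they share a culture or embryo is not stated by the labels. The result of 1 further gene list is not reported here.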

Additional observations from a re-analysis of the deposited data

Results flagged for a closer look

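For 20 genes the step from 1 h to 3 h differed between knockout and wild-type cells in limma's test of the difference itself, and each value is the knockout change minus the wild-type change (log2). The difference was positive for Car2 (1.63), Sstr2 (1.47), Slpi (1.41), Arc (1.20), Rorb (1.12), Btc (1.11), Fam83g (1.11), Dusp2 (1.09) and Egr1 (0.99). It was also positive for Egr3 (0.98), Serpinb2 (0.92), Pdp1 (0.91), Foxq1 (0.91), Il11 (0.78) and Simc1 (0.68). It was negative for Ch25h (−1.04), Klf2 (−0.80), Tmprss7 (−0.78), Ddit4l (−0.65) and Fam110b (−0.65). Of these 20 genes, 9 were called with every single array left out in turn, and 5 (Car2, Egr1, Fam83g, Slpi and Sstr2) under every alternative. The call was lost without some single arrays for Btc, Egr3, Serpinb2, Pdp1, Foxq1, Il11, Simc1, Klf2, Tmprss7, Ddit4l and Fam110b. Car2, Sstr2, Btc and Rorb were undetected in knockout cells at 1 h, so their sizes are not exact. Klf2 was not called with uncorrected background (−0.28), in the authors' series matrix (−0.30), under median scaling (−0.50), with scaling to the tested genes (−0.73), with only the compared arrays, or with any array left out other than wild-type 1 h arrays 2 and 3 and knockout 3 h array 2. Ch25h, which makes 25-hydroxycholesterol, was not called with median scaling (−0.80).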

How the results depend on the processing

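In knockout cells 1519 genes were called, against 604 with a 1.5-fold minimum and 964 with median scaling, and 1203 (without knockout 1 h array 1) to 1375 (without knockout 3 h array 2) with 1 array left out. In wild-type cells 1115 were called, against 405 and 653 under the same 2 alternatives and 790 to 999 with 1 array left out. Median scaling moved the share of calls that were higher to 74.8% in knockout and 33.2% in wild-type cells, against 53.7% and 53.1%, and the median of all genes to 0.09 and −0.08. The difference between the steps was called for 20 genes, 12 with scaling to the tested genes (chosen with earlier results known), 44 with array weights, 11 with only the compared arrays, and 9 to 16 with 1 array left out. With a 2-fold class threshold, 17 of 60 genes raised at 1 h in wild-type cells rose in knockout cells and 25 fell. Of 10 lowered at 1 h, 1 rose and 6 fell. Of 35 raised only at 3 h, 35 rose, and of 49 lowered only at 3 h, 48 fell. Fitting the replicate number as a block, although no pairing by number was visible, gave 1569, 1195 and 22 calls. Of 169 named genes that were called, 133 stayed called under every alternative and 0 changed sign. Some genes that were not called changed sign. With 1 knockout array left out, the change ranged over −0.016 to 0.217 for Ier2, −0.358 to 0.018 for Maff, −0.215 to 0.039 for Arc, −0.147 to 0.013 for Dusp14, −0.144 to 0.023 for Spry3 and −0.021 to 0.207 for Sh2b3. With median scaling it was 0.030 for Arc, 0.066 for Dusp14 and 0.0066 for Errfi1, and with scaling to the tested genes −0.015 for Sh2b3. The cause of these shifts was not tested. A slide block was not run, since the files name no slides. Signals near background give only bounds.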

Other observations

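Of 2951 kept probes without a single gene symbol, 4.24% were higher and 3.76% lower at 3 h than at 1 h in knockout cells, below the shares of all 20239 kept probes (5.45% and 4.81%). A probe assigned to Trbv13-2, a T cell receptor segment, was among the 15 largest rises (1.63).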
